A study of Mus musculus with 36 samples.

Results

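The transcription factors that start the oocyte programme, and early oocyte genes measured beside them, were followed in mouse primordial germ cells (PGCs), the embryonic precursors of eggs and sperm, and in whole gonads of fetuses exposed to intrauterine hyperglycemia (IUHG), high maternal glucose during pregnancy. The 10 genes, *Sohlh1*, *Sohlh2*, *Figla*, *Lhx8*, *Nobox*, *Taf4b*, *Taf7l*, *Dppa3*, *Ybx2* and *Zp3*, were taken by symbol out of 57126 genes in the PGC tables and 56262 in the gonad tables. All 10 were found in both, each under 1 gene identifier. They had been picked for their expression in these same libraries, so their own values are a description. No p-value is given for any of them, and where the text says how many passed a threshold, nothing is read from that count. Levels are given as TPM, an abundance scaled for transcript length and to a fixed total per library, so that levels of different genes can be set side by side.

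RNA sequencing covered 36 libraries in 12 groups of 3. Control and IUHG PGCs were collected at E12.5 (E, embryonic day) without a record of sex, and from female (F) and male (M) fetuses at E13.5 and E16.5. Control and IUHG whole gonads came from female fetuses at E13.5. For IUHG, dams received streptozotocin (STZ), a drug toxic to pancreatic β-cells, on day 3.5 of pregnancy at a dose of 120 mg/kg and had blood glucose above 14 mM by day 6.5. Control fetuses had dams without hyperglycemia, at an STZ dose of 0 mg/kg. STZ and high glucose thus differ together between the groups and cannot be told apart here. Gonads were from ICR mice. PGCs of control and IUHG fetuses alike carried an Oct4-EGFP transgene, in which the *Pou5f1* (*Oct4*) promoter drives a fluorescent protein. They were sorted for fluorescence, so a PGC library was enriched for fluorescent cells and may hold some others. The labels call all libraries wild type. Gonads of several fetuses were pooled, and the labels do not say which libraries share a litter, so p-values measure only the spread between these libraries, which may be partly technical.

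In the fetal ovary, PGCs enter meiosis and begin to build an oocyte. SOHLH1, SOHLH2 and FIGLA are basic helix-loop-helix proteins, a class that binds the E-box, a short DNA element. LHX8 and NOBOX are homeodomain proteins. Loss of any of these factors in mice is known to block follicle formation or to deplete oocytes. TAF4B and TAF7L are germ cell variants of subunits of TFIID, the complex that places RNA polymerase II at promoters. DPPA3 (STELLA) shields the maternal genome from demethylation after fertilization and is also present in PGCs, YBX2 (MSY2) binds and stores RNA in oocytes and male germ cells, and ZP3 is a protein of the egg coat.

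Promoters are shown for the 4 factors whose RNA was lower in IUHG female PGCs at E16.5 and for *Taf7l*, whose RNA was lower at E13.5 and not at E16.5, so that the DNA at these start sites can be compared. Each line holds 300 bases, from 250 before the start of the transcript to 50 after it, on the strand of the gene, from RefSeq on GRCm38.p6. Capitals mark the E-box CANNTG, which reads the same on both strands. The windows are chr2:25847199-25847498 (minus strand) for *Sohlh1*, chr6:86016941-86017240 (plus) for *Figla*, chr3:154330511-154330810 (minus) for *Lhx8*, chr6:43309505-43309804 (minus) for *Nobox* and chrX:134476441-134476740 (minus) for *Taf7l*.
Sohlh1: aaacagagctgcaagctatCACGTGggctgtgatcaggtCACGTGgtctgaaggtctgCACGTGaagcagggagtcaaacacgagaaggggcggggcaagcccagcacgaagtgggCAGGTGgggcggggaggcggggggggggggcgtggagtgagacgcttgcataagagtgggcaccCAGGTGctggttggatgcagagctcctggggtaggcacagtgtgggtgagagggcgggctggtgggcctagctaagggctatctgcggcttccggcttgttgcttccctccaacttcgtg
Figla: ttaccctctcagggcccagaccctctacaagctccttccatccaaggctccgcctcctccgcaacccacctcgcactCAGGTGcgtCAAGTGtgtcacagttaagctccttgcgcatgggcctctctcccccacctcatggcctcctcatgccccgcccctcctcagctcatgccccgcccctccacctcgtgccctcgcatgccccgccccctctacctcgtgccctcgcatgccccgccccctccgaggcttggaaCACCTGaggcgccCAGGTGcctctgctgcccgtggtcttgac
Lhx8: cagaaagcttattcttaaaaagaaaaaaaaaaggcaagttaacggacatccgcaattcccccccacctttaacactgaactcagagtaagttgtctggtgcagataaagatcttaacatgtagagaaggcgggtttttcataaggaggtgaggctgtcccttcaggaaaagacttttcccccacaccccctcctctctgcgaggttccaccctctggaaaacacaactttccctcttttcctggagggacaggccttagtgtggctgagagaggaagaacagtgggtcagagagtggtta
Nobox: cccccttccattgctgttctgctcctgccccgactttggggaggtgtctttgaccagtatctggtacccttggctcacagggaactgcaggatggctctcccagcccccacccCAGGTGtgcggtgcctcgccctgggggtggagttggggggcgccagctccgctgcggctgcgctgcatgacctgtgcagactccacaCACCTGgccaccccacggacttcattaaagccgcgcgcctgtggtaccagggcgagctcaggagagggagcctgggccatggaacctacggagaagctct
Taf7l: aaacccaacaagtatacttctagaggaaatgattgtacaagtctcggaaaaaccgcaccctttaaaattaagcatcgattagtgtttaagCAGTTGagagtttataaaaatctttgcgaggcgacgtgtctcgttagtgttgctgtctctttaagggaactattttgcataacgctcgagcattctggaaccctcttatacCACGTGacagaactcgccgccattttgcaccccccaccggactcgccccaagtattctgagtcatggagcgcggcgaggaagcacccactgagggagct
RefSeq windows were matched for 8 of the 10 genes, with a pair of windows for *Ybx2*. The *Sohlh1* window held 5 E-boxes, starting at positions -231, -211, -192, -134 and -70 from the start site, of which 3 read CACGTG and 2 CAGGTG or its reverse complement CACCTG. The *Figla* window held 4, of which 3 read CAGGTG or CACCTG, and the *Nobox* window 2, both CAGGTG or CACCTG. The *Taf7l* window held 2 E-boxes, 1 of them CACGTG. It also held 2 matches to TATAAA, which overlap on opposite strands of a single stretch, TTTATAAA. The *Lhx8* window held no CANNTG, which says only that these letters are not in it. Of 32851 promoter windows of the same length in the table, 72.3% held CANNTG, 7.15% CACGTG, 20.2% CAGGTG and 13.6% TATAAA on either strand, and the median number of CANNTG was 1 (quartiles 0 and 2). CACGTG and CAGGTG are special cases of CANNTG. Of homeodomain elements, TAATTG stood in 8.0% of all windows and in 0 of the 9 windows of these genes, and TGATTG in 14.0% of all windows and, among the 9, in that of *Taf7l*.

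Aligned bases ranged from 3.25 to 8.32 gigabases in PGC libraries and from 3.89 to 4.95 gigabases in gonad libraries. The labelled cell type was checked by the summed TPM of 4 germ cell genes (*Ddx4*, *Dazl*, *Dnd1* and *Mael*), which was 2306 to 2437 in control E12.5 PGCs, 3113 to 3415 in control E13.5F PGCs and 301 to 372 in control gonads. The 5 pregranulosa genes, *Foxl2* among them, summed to 20.8 to 39.3 TPM in control E16.5F PGCs and 231 to 333 TPM in control gonads. Y-linked genes summed to at most 0.601 TPM in the female PGC libraries. The E12.5 libraries carried them at 189 to 208 TPM in control and 126 to 150.3 TPM in IUHG. In E13.5M PGCs they were at 147 to 179 TPM in control and 113 to 117.5 TPM in IUHG. The 3 control gonad libraries summed to 8.23 to 204 TPM for 3 Sertoli genes, with the highest value in control library 1, which was labelled female and alone carried Y-linked genes (*Eif2s3y* at 27.5 TPM). IUHG gonads had Y-linked genes listed at 0 and a Sertoli sum of 8.96 to 10.8 TPM. Gonad results were therefore also computed without that library.

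In control PGCs the 10 genes fell into several patterns, which the plot of each gene by library shows. *Figla* and *Taf7l* were higher in female than in male cells from E13.5 on. *Figla* was at 75.4, 89.8 and 78.0 TPM in control E13.5F PGCs and at 1.13, 2.76 and 2.17 TPM in control E13.5M PGCs. *Taf7l* was at 383, 351 and 427 TPM in control E13.5F and at 14.7, 14.8 and 14.0 TPM in control E13.5M PGCs. Neither gene overlapped between the sexes, and both were higher still at E16.5F, at 784 ± 45.3 TPM for *Figla* and 1169 ± 60.7 TPM for *Taf7l* (SD, n = 3).

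**Figure D1:**
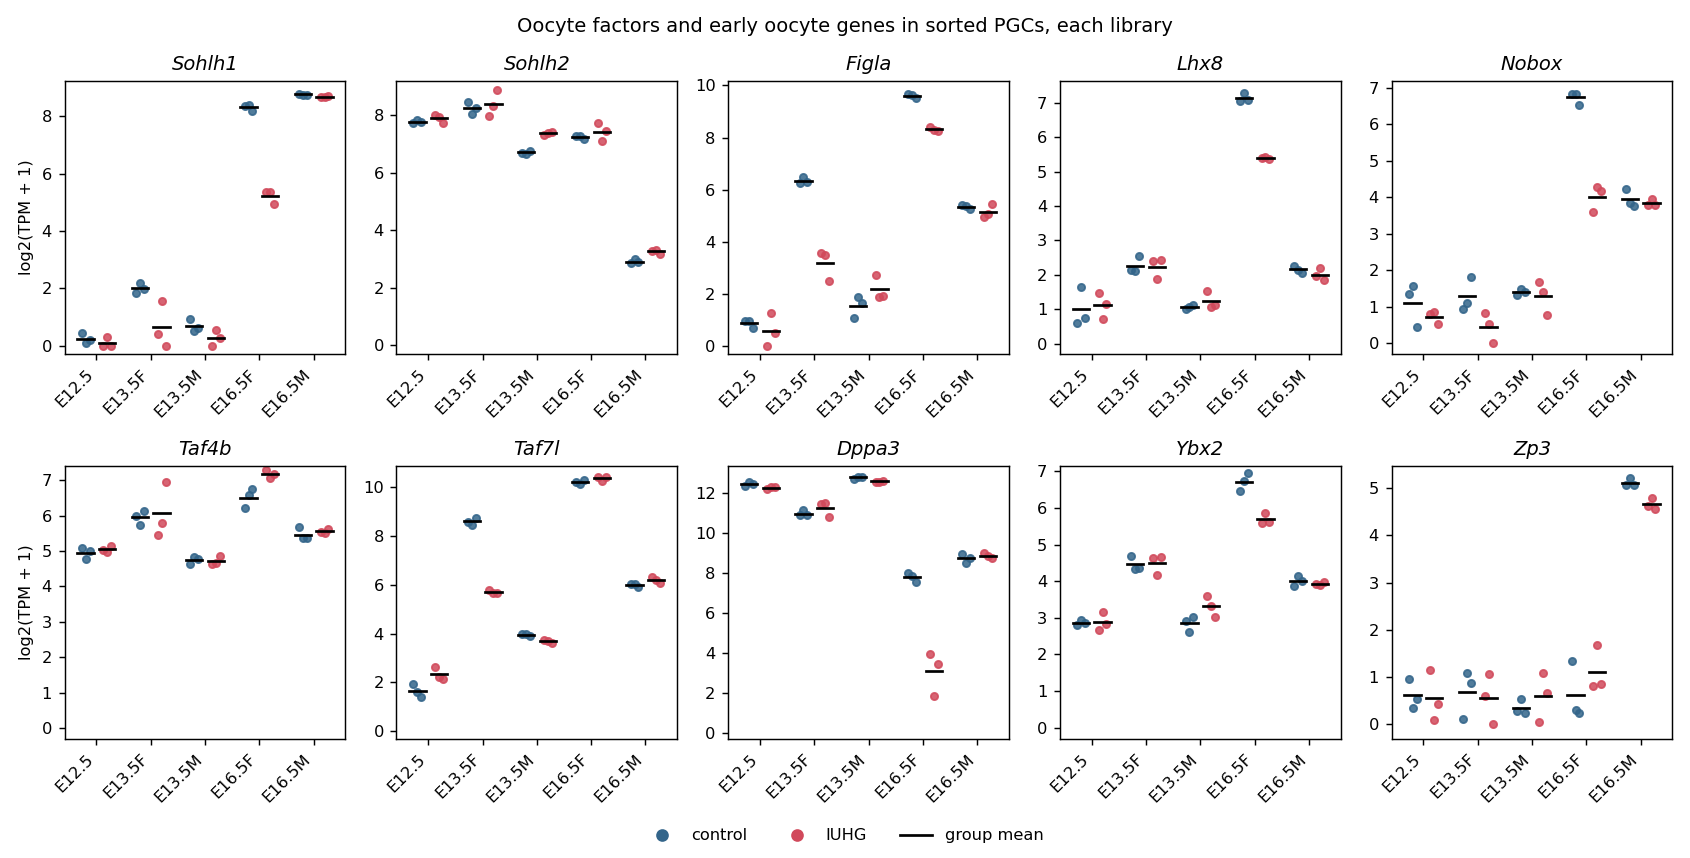
Each panel plots log2(TPM + 1) of 1 gene in the 30 PGC libraries, with control in blue, IUHG in red and black bars at the mean of 3 libraries. In E16.5F PGCs the IUHG points of Sohlh1, Figla, Lhx8, Nobox, Dppa3 and Ybx2 lie below all control points, and at E13.5F those of Sohlh1, Figla, Nobox and Taf7l do.

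*Sohlh1*, *Lhx8* and *Nobox* came on late. In control PGCs at E12.5 and E13.5M *Sohlh1* was at most 0.368 and 0.895 TPM. It averaged 3.00 ± 0.485 TPM in control E13.5F PGCs and 319.6 ± 24.7 TPM in control E16.5F PGCs (SD, n = 3), 107 times as much. *Lhx8* stood at 3.87 ± 0.854 and 141 ± 13.0 TPM and *Nobox* at 1.52 ± 0.858 and 106 ± 13.1 TPM at the same ages. *Lhx8* and *Nobox* were female genes at E16.5, with 3.47 ± 0.285 TPM and 14.5 ± 2.88 TPM in control E16.5M PGCs, below every control E16.5F library. *Sohlh1* was not, since control E16.5M PGCs had 443, 431 and 430.5 TPM, all above the control E16.5F libraries.

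*Sohlh2*, which codes for a partner of SOHLH1, was early. It was already at 218 ± 6.68 TPM in control PGCs at E12.5, stood at 306 ± 42.7 TPM in control E13.5F PGCs, its highest control level, and at 150.4 ± 7.05 TPM in control E16.5F and 6.54 ± 0.386 TPM in control E16.5M PGCs (SD, n = 3). *Dppa3*, a gene of PGCs before they differentiate, reached the highest levels of the 10, with 5535 ± 375 TPM in control E12.5 and 6931 ± 242 TPM in control E13.5M PGCs. It was lower in control E13.5F PGCs (1989 ± 208 TPM) and lower again at E16.5F (221 ± 34.9 TPM).

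*Taf4b* varied least over the control PGC groups, between a group mean of 25.9 TPM in control E13.5M and 90.9 TPM in control E16.5F PGCs. Its annotated span overlaps that of *Gm21055* on the same strand, so part of its reads could belong to that gene. *Ybx2* stood at 21.2 ± 3.32 TPM in control E13.5F, 105 ± 17.7 TPM in control E16.5F and 15.2 ± 1.45 TPM in control E16.5M PGCs. *Zp3* was near 0 in female PGCs, at most 1.54 TPM in control E16.5F libraries, and stood at 32.5, 36.1 and 32.3 TPM in control E16.5M PGCs. The egg coat gene was thus higher in male than in female germ cells at this age. *Zp1* and *Zp2*, which code for other egg coat proteins, were at 4.21 ± 0.316 and 13.9 ± 2.30 TPM in control E16.5M PGCs, and at 0.492 and 0.504 TPM in control E16.5F PGCs.

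Between control E16.5F and control E13.5F PGCs, limma on log2(TPM + 1) called 8 of the 9 members tested, 6 higher and 2 lower (*Sohlh2* and *Dppa3*), where 28.2% of the 17988 genes tested were called, 18.4% higher and 9.78% lower. A call in PGCs means that the adjusted p was under 0.01 and that the log2 difference exceeded 1 in size. The members' median log2 difference was 2.25, and that of all genes 0.315. Between control E13.5F and control E13.5M PGCs 8 of 9 were called, 7 higher in females and *Dppa3* lower, against 29.8% of 15718 genes, 20.4% higher and 9.35% lower. *Sohlh1* entered that test through its female level alone. The members had a median of 1.31 and all genes 0.280. The log2 differences of *Lhx8* and *Taf4b* between the sexes fell below 1 with median-of-ratios scaling (0.98 and 0.88). That of *Sohlh2* between the ages (-1.01) did so without E13.5F control library 1 (-0.91) or E16.5F control library 3 (-0.97). The members had been chosen on these data, so nothing is read from these counts.

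In E16.5F PGCs the core oocyte factors were lower after IUHG. *Sohlh1* stood at 11.4% of its control mean, *Nobox* at 14.6%, *Lhx8* at 29.3% and *Figla* at 41.0%. *Dppa3* stood at 4.04% and *Ybx2* at 48.7%, while *Sohlh2*, *Taf4b* and *Taf7l* were not lower. Of the 10 members 6 were called lower and 0 higher, where 0.533% of 18753 genes were called lower and 0.203% higher. The same 6 lay below all control libraries and *Taf4b* above them, orders seen for 14.1% and 14.9% of all genes. The genes were chosen on this contrast, so nothing is read from either count. In libraries of sorted cells, fewer cells that express a gene and less RNA per cell cannot be told apart.

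*Sohlh1* was at 331, 336 and 291 TPM in control and at 39.8, 40.5 and 29.4 TPM in IUHG E16.5F PGCs. The groups were far apart and each was tight. The log2 difference was -3.10 (standard error 0.143), computed on log2(TPM + 1) as for all genes below. Each IUHG E16.5F library was above the IUHG E13.5F libraries, which were at 0.326, 1.91 and 0 TPM.

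*Figla*, a factor needed for primordial follicles and zona genes, was at 823, 795 and 735 TPM in control and 339, 317 and 308 TPM in IUHG E16.5F PGCs, without overlap, with a log2 difference of -1.28 (standard error 0.0781). *Sohlh2*, the third helix-loop-helix factor, was at 156, 153 and 142 TPM in control and 212, 134 and 174 TPM in IUHG, which overlap (0.18, standard error 0.154).

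Both homeobox genes were lower. *Lhx8* was at 132, 156 and 135 TPM in control and 41.1, 42.3 and 40.2 TPM in IUHG E16.5F PGCs (log2 difference -1.75, standard error 0.121). *Nobox* was at 113, 113 and 90.5 TPM in control and 11.0, 18.4 and 16.8 TPM in IUHG (-2.72, standard error 0.205). Neither gene overlapped between the groups. The IUHG mean of *Nobox* (15.4 TPM) was near that of control E16.5M PGCs (14.5 TPM), and that of *Lhx8* was 10.9 times its IUHG E13.5F level.

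**Figure D2:**
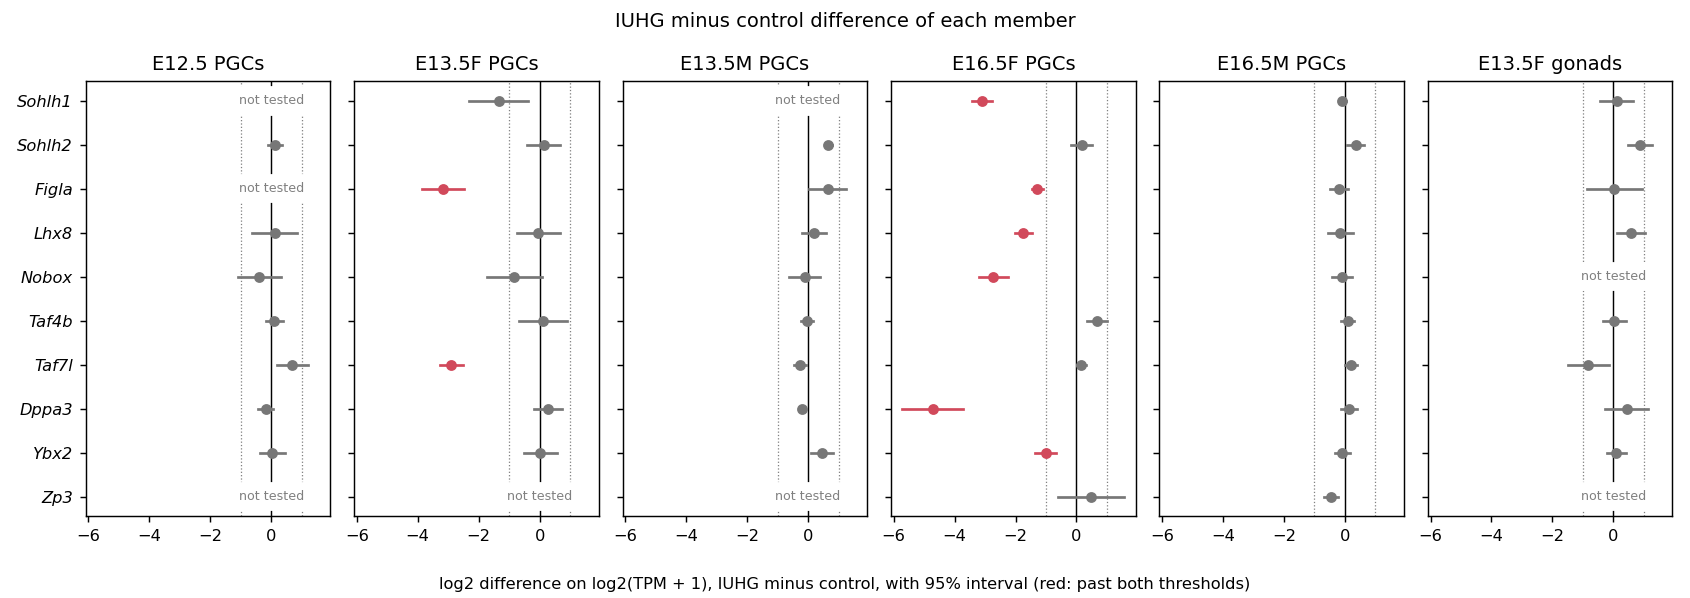
Points are the log2 difference of each gene between 3 IUHG and 3 control libraries on log2(TPM + 1), with 95% intervals, in each stage, sex and tissue. Red marks genes past both the adjusted p and the fold threshold, which were 6 in E16.5F PGCs, 2 in E13.5F PGCs and 0 in the other 4 comparisons.

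The largest difference among the members was that of *Dppa3* (chr6:122603369-122607231 on mm39, plus strand). It was at 253, 227 and 184 TPM in control and 14.5, 2.53 and 9.81 TPM in IUHG E16.5F PGCs, a log2 difference of -4.72 (standard error 0.448). Mean read depth over its bases was 396 to 559.9 in control and 5.34 to 29.9 in IUHG libraries. The genome holds processed copies of *Dppa3* that could take or give reads, so its level is less certain than those of the other genes. *Ybx2* (chr11:69826622-69832431 on mm39, plus strand) was at 86.6, 105 and 122 TPM in control and 46.8, 57.4 and 48.6 TPM in IUHG, without overlap (-1.01, standard error 0.156). Its size was at the threshold of 1, and the call was lost under 8 of 12 other settings, among them leaving out any control library or IUHG library 1 or 3, with log2 differences of -1.14 to -0.90. Its paralogs *Ybx1* and *Ybx3*, which bind RNA in many tissues, were not called (-0.50, standard error 0.146, limma adjusted p = 0.08, and -0.12, standard error 0.189, limma adjusted p = 0.74).

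The TFIID variants were not lower in IUHG at this age. *Taf7l* was at 1169, 1108 and 1230 TPM in control and 1342, 1214 and 1373 TPM in IUHG E16.5F PGCs (log2 difference 0.16, 95% interval 0.00480 to 0.32). The groups overlap, and the interval does not reach 1. *Taf4b* was at 72.8, 94.1 and 106 TPM in control and 154, 134 and 143 TPM in IUHG, with every IUHG library above every control library (0.67, standard error 0.147). It did not pass the fold threshold. *Zp3* was near 0 in both groups, at 0.181 to 1.54 TPM in control and 0.762 to 2.23 TPM in IUHG, and entered the test through its IUHG level alone.

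Other genes in the same E16.5F libraries are given for comparison. The 4 meiosis genes *Stra8*, *Meiosin*, *Sycp3* and *Sycp1* summed to 6761 to 7232 TPM in control and 7691 to 9420 TPM in IUHG. *Sycp3* and *Meiosin* were higher in every IUHG library, and *Stra8* and *Sycp1* overlapped. The sum of the 4 germ cell genes overlapped (2738 to 3024 and 2611 to 2956 TPM), but its members went different ways. *Dnd1*, at 16.1 to 28.3 TPM in control and 5.69 to 7.19 TPM in IUHG, and *Mael*, at 1210 to 1270 TPM in control and 942 to 1030 TPM in IUHG, were lower in every IUHG library. *Ddx4* was higher in every IUHG library, at 360.0 to 368 TPM in control and 374 to 423 TPM in IUHG, and *Dazl* overlapped. The pregranulosa sum overlapped (20.8 to 39.3 and 25.1 to 38.2 TPM). The sum of 4 interstitial genes was low but higher in IUHG, at 8.85 to 22.4 TPM in control and 35.3 to 45.5 TPM in IUHG. *Col1a1* (3.98 to 15.0 TPM in control and 26.4 to 34.5 TPM in IUHG) and *Tcf21* carried this, while *Nr2f2* and *Pdgfra* overlapped. That of 4 blood genes was 2.94 to 17.1 and 1.61 to 164 TPM. The part of these genes in the values of the oocyte factors was not tested. The calls of *Sohlh1*, *Figla* and *Lhx8* held under each of 12 other settings. These settings refit the libraries on which the members were chosen, so nothing is read here or below from a member's call that held. *Nobox* lost its call without E16.5F control library 2 (-2.67) and *Dppa3* without E16.5F control library 1 (-4.61), 2 (-4.69) or 3 (-4.84), and both without a filter on low values, with little change in size.

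In E13.5F PGCs fewer members were lower. *Figla* was at 11.1, 10.2 and 4.62 TPM in IUHG against 75.4, 89.8 and 78.0 TPM in control (log2 difference -3.17, standard error 0.305). *Taf7l* was at 53.5, 49.5 and 49.2 TPM in IUHG against 383, 351 and 427 TPM in control (-2.90, standard error 0.167). These are the members in which control female cells exceeded control male cells most at this age, and their IUHG levels lay between the control E13.5F and control E13.5M levels. Of 9 members tested these 2 were called, both lower, against 0.435% of 16539 genes called lower. With *Sohlh1* and *Nobox*, 4 lay below all control libraries, as did 13.2% of all genes, and nothing is read from either count. *Figla* lost its call, with little change in size, without E13.5F control library 1 (-3.21), 2 (-3.09) or 3 (-3.19) and without a filter on low values, where 1 gene of all was called.

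The other members were not called at E13.5F, though *Sohlh1* was (-1.34) when all PGC libraries shared a fit. *Sohlh1* was at 2.53, 3.5 and 2.97 TPM in control and 0.326, 1.91 and 0 TPM in IUHG, and *Nobox* at 0.909, 1.15 and 2.50 TPM against 0.786, 0.426 and 0 TPM. Both were lower in every IUHG library but near the detection limit, and they entered the test through their control level alone. *Sohlh2* overlapped (0.13, standard error 0.238), as did *Lhx8* (-0.04, standard error 0.319), *Taf4b* (0.12, standard error 0.350), *Dppa3* (0.27, standard error 0.205) and *Ybx2* (0.03, standard error 0.242). IUHG library 3 stood apart for several of them. For *Sohlh2* the 3 IUHG libraries were at 250, 315 and 470.1 TPM, for *Taf4b* at 42.7, 54.6 and 124 TPM and for *Dppa3* at 2780, 2823 and 1755 TPM. Without it the calls of *Figla* (-2.82) and *Taf7l* (-2.88) held, and *Taf4b* was at -0.32, standard error 0.172, and *Sohlh2* at -0.11, standard error 0.150. *Dppa3* was then at 0.50, standard error 0.105, and the 2 IUHG libraries left were above every control library (1850 to 2229 TPM), so its overlap rests on library 3. The meiosis genes summed to 3634 to 3924 TPM in control and 891 to 1004 TPM in IUHG E13.5F PGCs. Each of the 4 was lower in every IUHG library. Of 3 endothelial genes, *Cdh5* and *Kdr* were at no more than 0.650 TPM in any of these libraries and overlapped, and *Pecam1*, which control E12.5 PGCs had at 122 to 132 TPM, was at 50.4 to 69.1 TPM in control and 88.4 to 208 TPM in IUHG. Their part in the values of *Figla* and *Taf7l* was not tested.

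The gap between IUHG and control differed between the ages in females. The stage by IUHG interaction, the log2 difference at E16.5F minus that at E13.5F, was 3.07 for *Taf7l* (standard error 0.165) and 1.88 for *Figla* (standard error 0.322). *Figla* was lower in IUHG at both ages, and less so at the later one, while *Taf7l* was lower at E13.5F and its groups overlapped at E16.5F. The interaction was -1.71 for *Lhx8* (standard error 0.311) and -4.99 for *Dppa3* (standard error 0.542), genes whose groups overlapped at E13.5F and not at E16.5F. The interaction calls of *Figla* and *Lhx8* were each lost under 10 of 18 other settings, listed below. *Taf7l* in IUHG cells was at 50.7 ± 2.38 TPM at E13.5F and 1309 ± 84.3 TPM at E16.5F (SD, n = 3), a ratio of 25.8, against 3.02 in control cells. For *Dppa3*, E13.5F cells had 8.99 times the level of E16.5F cells in control and 274 times in IUHG. Values for *Sohlh1* (-1.76, standard error 0.455), *Nobox* (-1.89, standard error 0.450) and *Ybx2* (-1.04, standard error 0.287) did not pass the adjusted p of 0.01 used for interactions. All 3 passed it when all PGC libraries shared a fit, and *Sohlh1* (-2.08) and *Nobox* (-2.12) did so without E13.5F IUHG library 3. In all, 4 of 10 members passed it, where 1.93% of 20584 genes did, and nothing is read from that count.

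Male and E12.5 PGCs had no member past both thresholds, of 7 tested at E12.5, 8 at E13.5M and 10 at E16.5M, where 0.247%, 3.92% and 0.201% of genes were called. At an unadjusted limma p under 0.05 with no fold the members counted were 1 of 7 at E12.5, 5 of 8 at E13.5M and 3 of 10 at E16.5M, where 15.7%, 43.9% and 23.9% of all genes passed. *Sohlh1* was at 443, 431 and 430.5 TPM in control and 406, 405 and 419 TPM in IUHG E16.5M PGCs. The IUHG libraries were lower, without overlap, by a small margin (-0.09, standard error 0.0484). *Dppa3* was at 492, 350.0 and 422 TPM in control and 501, 448 and 427 TPM in IUHG E16.5M PGCs, which overlap. *Nobox*, *Lhx8*, *Figla* and *Ybx2* overlapped as well at E16.5M, with log2 differences between -0.18 and -0.08.

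Some smaller shifts in males did not overlap, and nothing is read from how many did so. Shifts were common among all genes, of which 43.9% at E13.5M, 23.9% at E16.5M and 15.7% at E12.5 had an unadjusted limma p under 0.05. *Sohlh2* was higher in IUHG E13.5M PGCs, at 157, 166 and 171 TPM against 102, 100.4 and 107 TPM (log2 difference 0.67, standard error 0.0526). It was also higher in IUHG E16.5M PGCs, at 8.80, 9.01 and 8.10 TPM against 6.23, 6.97 and 6.42 TPM (0.35, standard error 0.126). *Zp3* was lower in IUHG E16.5M PGCs, at 23.6, 26.6 and 22.5 TPM against 32.5, 36.1 and 32.3 TPM (-0.46, standard error 0.0986). All of these were under the fold threshold. *Taf7l* and *Dppa3* were lower in IUHG E13.5M PGCs (-0.27, standard error 0.0863, and -0.20, standard error 0.0357), and *Taf7l* was higher in IUHG E16.5M PGCs (0.21, standard error 0.0850), also under the threshold. At E12.5 *Taf7l* was at 5.25, 3.71 and 3.47 TPM in IUHG and 2.81, 2.09 and 1.65 TPM in control (0.69, standard error 0.226). This is a low level in cells of unrecorded sex that carried Y-linked transcripts. *Dppa3* was lower in IUHG at E12.5 without overlap (-0.18, standard error 0.107). *Nobox* entered the E12.5 test through its control level alone. The Y-linked sums of the E12.5 groups, given above, differ without overlap, and the share of male cells was not tested.

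The difference between the sexes in the IUHG effect at E13.5, female minus male, was -3.80 for *Figla* (standard error 0.452) and -2.64 for *Taf7l* (standard error 0.165). These 2 of 9 members passed, where 3.2% of 17389 genes did, and nothing is read from that count. Without E13.5F IUHG library 3 *Sohlh2* (-0.78) and *Dppa3* (0.70) passed as well. The E13.5F libraries enter this interaction and the stage by IUHG one alike. In male cells *Figla* was at 5.70, 2.70 and 2.85 TPM in IUHG and 1.13, 2.76 and 2.17 TPM in control, values that overlap.

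Whole E13.5F gonads, in which germ cells are mixed with somatic cells, gave no called member of 8 tested, where 0.612% of 18150 genes were called, and 3 with an unadjusted limma p under 0.05, as had 19.9% of all genes. The call in gonads needs an adjusted p under 0.05 and a log2 difference of at least 1 in size. *Figla* was at 4.05, 3.02 and 2.85 TPM in control and 6.09, 4.53 and 1.12 TPM in IUHG gonads, which overlap (0.03, 95% interval -0.88 to 0.94). These levels were low, with a mean read depth of 0.826 to 3.94, where control E13.5F PGCs had 75.4 to 89.8 TPM. The gonads also came from ICR mice. The part of depth, tissue or strain in this overlap was not tested. *Taf7l* was at 59.2, 101 and 75.5 TPM in control and 66.1, 43.1 and 27.9 TPM in IUHG, which overlap (-0.82, standard error 0.290). *Sohlh2* was higher in IUHG, at 75.9, 66.9 and 63.5 TPM against 26.4, 44.5 and 41.6 TPM (0.89, standard error 0.174), below the fold threshold. *Lhx8* was also higher in every IUHG library, but at no more than 1.24 TPM, and entered the test through its IUHG level alone. These 2 of the 8 lay above all control libraries, as did 14.5% of all genes.

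**Figure D3:**
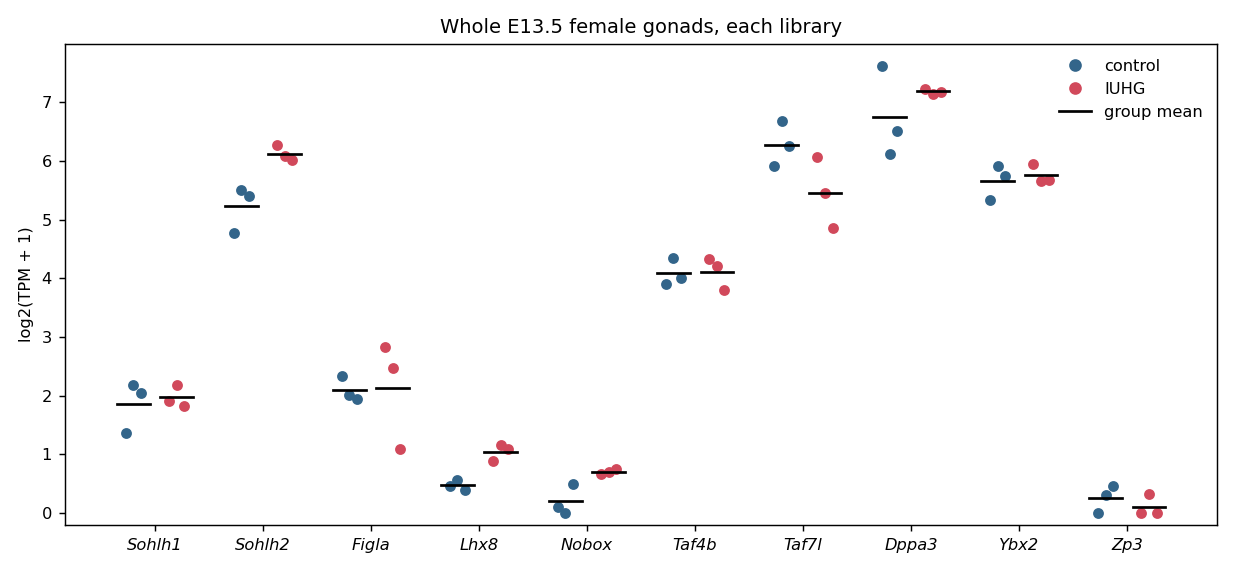
Points are log2(TPM + 1) of the 10 genes in the 3 control (blue) and 3 IUHG (red) libraries of whole E13.5 female gonads, with black bars at the mean. IUHG points lie above all control points for Sohlh2, Lhx8 and Nobox, of which only Sohlh2 exceeds 2 TPM, and overlap the control points for the others.

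The sum of the 4 germ cell genes was higher in IUHG gonads, at 379 to 515 TPM against 301 to 372 TPM, and that of the 4 blood genes, nearly all from the globin genes *Hba-a1* and *Hbb-bt*, was lower, at 4485 to 5292 TPM against 6284 to 7997 TPM. Of the germ cell genes, *Dazl* (156 to 206 TPM in control and 233 to 294 TPM in IUHG) and *Dnd1* (20.9 to 32.7 TPM in control and 33.2 to 43.4 TPM in IUHG) were higher without overlap, and *Ddx4* and *Mael* overlapped, with *Mael* in IUHG library 3 below every control. A different share of germ cells in the tissue and a different level per germ cell cannot be told apart here. Control library 1, with its Y-linked transcripts, had the lowest *Sohlh2* (26.4 TPM) and *Sohlh1* (1.58 TPM) and the highest *Dppa3* (195 TPM) of the controls. Without it no member was called either, with log2 differences of 0.66 for *Sohlh2*, -1.01 for *Taf7l*, 0.56 for *Lhx8*, 0.87 for *Dppa3* and 0.15 for *Figla*. *Dppa3* was at 141 to 149.8 TPM in IUHG and 68.8 to 195 TPM in control.

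Beyond the 10, 57 other genes of the oocyte programme were examined by role. They were partners of the factors and oocyte regulators (10), TFIID subunits (16), secreted and zona proteins (5), maternal effect genes (12), RNA-binding proteins (10) and *Dppa* genes with *Uhrf1* (4). In E16.5F PGCs 1 of 46 tested was called, where 0.533% of all genes were called lower and 0.203% higher. This was *Kit*, the receptor by which oocytes respond to KIT ligand. It was at 45.1 to 53.2 TPM in control and 7.91 to 19.2 TPM in IUHG (log2 difference -1.82, standard error 0.279, limma adjusted p = 0.0084). The call, which is close to 0.01, was lost under 7 of 12 settings, among them leaving out E16.5F control library 1 (-1.83), 2 (-1.76) or 3 (-1.88) or E16.5F IUHG library 3 (-1.89) and the replicate block. The 46 genes had a median log2 difference of 0.0826, and all genes 0.0390.

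**Figure D4:**
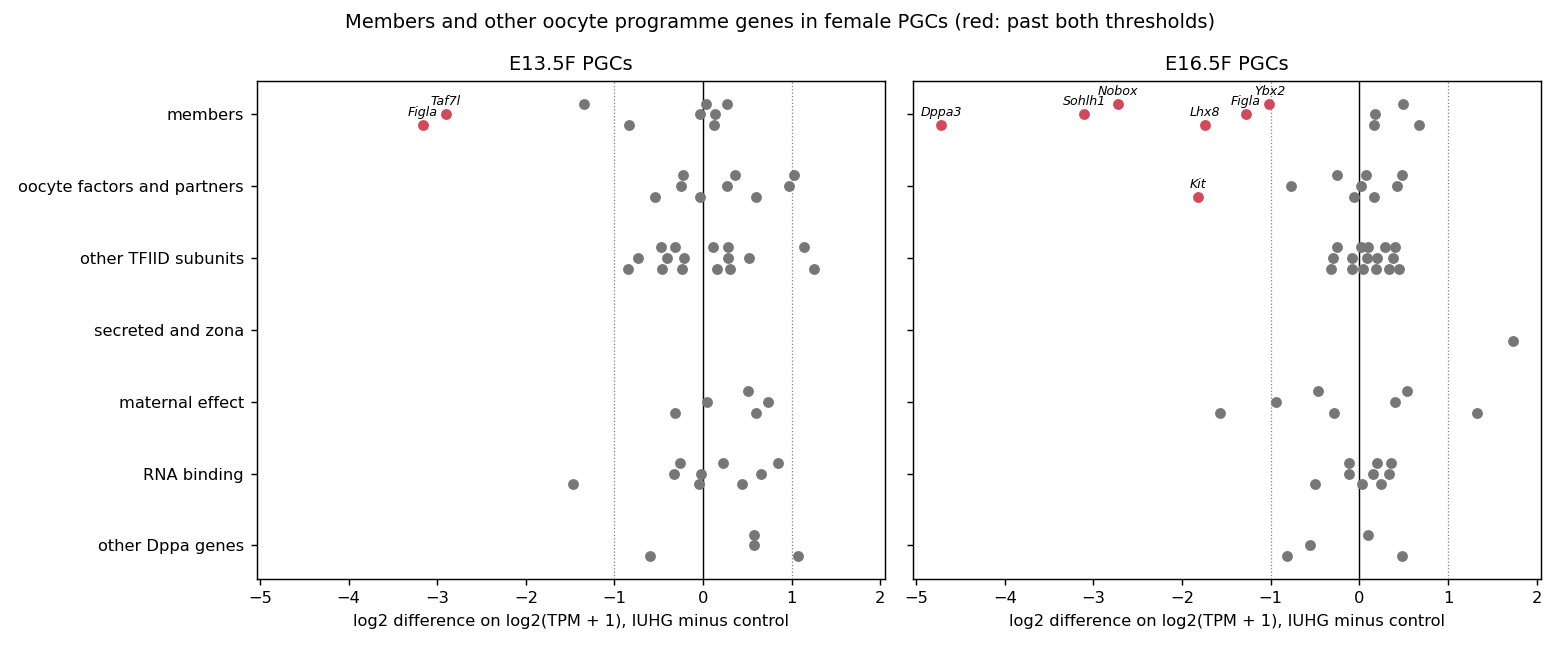
Points are the log2 difference between IUHG and control on log2(TPM + 1) for each tested gene of the 10 members and of 6 lists of other oocyte genes, in E13.5F (left) and E16.5F PGCs (right), with red for genes past both thresholds and dotted lines at -1 and 1. Outside the members only Kit at E16.5F passed both thresholds.

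None of the 16 other TFIID subunits was called by limma at E16.5F (5 had an unadjusted p under 0.05, as had 22.8% of all genes), with a median of 0.0927. The general paralogs of the germ cell variants were at -0.32 for *Taf4* (standard error 0.290, limma adjusted p = 0.53) and -0.09 for *Taf7* (standard error 0.102, limma adjusted p = 0.63). *Gdf9*, an oocyte growth factor, was the only one of the 5 secreted protein genes tested, at 0.959 to 4.91 TPM in control and 8.77 to 9.56 TPM in IUHG (1.73, standard error 0.419, limma adjusted p = 0.046), which misses the threshold. *Ooep*, of the subcortical maternal complex, was at -1.57 (standard error 0.344, limma adjusted p = 0.033), and was not called. *Gdf9*, *Ooep* and *Eif2s3y* lie outside the rule for named genes here and were chosen after their values were seen.

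At E13.5F 0 of 43 were called by limma, where 85 of 16539 genes were. The median log2 difference of the 43 was 0.158, against 0.145 for all genes. The count was 3 at an unadjusted limma p under 0.01 with the same fold, where 1005 of 16539 genes passed. It was 12 at an unadjusted limma p under 0.05 with no fold, which 23.4% of all genes passed. When all PGC libraries shared a fit it was 4, where 1237 of 25182 genes were called. At E12.5 1 of 42 was called, where 0.247% of all genes were. This was *Khdc3*, also of the subcortical maternal complex, at 47.9 to 55.7 TPM in control and 9.23 to 14.6 TPM in IUHG (-1.94, standard error 0.172, limma adjusted p = 0.0011). It lost its call without E12.5 control library 2 (-1.87) or 3 (-1.98). At E13.5 *Khdc3* was much higher in control male than in control female PGCs, as given below. Sex was not recorded at E12.5, and the Y-linked sum was 189 to 208 TPM in control and 126 to 150.3 TPM in IUHG. The part of the share of male cells in this difference was not tested. In E13.5M PGCs 1 of 43 was called, where 3.92% of all genes were. This was *Zp1*, at 1.44 to 2.52 TPM in control and 0.313 to 0.659 TPM in IUHG (-1.03, standard error 0.198, limma adjusted p = 0.0037). *Zp1* lost its call without E13.5M control library 1 (-0.93) or 3 (-0.95) or E13.5M IUHG library 1 (-0.92) or 2 (-1.07). It entered that test through its control level alone. E16.5M PGCs had 0 of 53 called by limma, where 0.201% of all genes were. The count was also 0 at an unadjusted p under 0.01 with the same fold, where 234 of 20945 genes passed. At an unadjusted limma p under 0.05 with no fold the count was 15, where 23.9% of all genes passed.

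In gonads 1 of 42 was called, where 0.612% of all genes were. This was *Dppa2*, a pluripotency-related gene of early germ cells, at 4.58 to 6.28 TPM in control and 12.3 to 15.2 TPM in IUHG (1.22, standard error 0.134, limma adjusted p = 0.0065). Without control library 1, the one with Y-linked transcripts, 5 were called, where 110 of 18128 genes were. This adds *Pou5f1* (1.07), *Ooep* (1.25), *Dppa4* (1.14) and *Dppa5a* (1.05). *Ooep* entered the gonad test through its IUHG level alone.

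Between control E16.5F and control E13.5F PGCs, 12 of 46 other programme genes were called, 6 higher and 6 lower, beside the share of all genes given above. The TFIID subunits called were *Taf9b* (log2 difference 2.31, standard error 0.114, limma adjusted p = 5.1e-07), *Taf8* (1.09, standard error 0.151, limma adjusted p = 2.3e-04) and *Taf13* (1.00, standard error 0.178, limma adjusted p = 0.0011). *Taf8* and *Taf13* fell below the fold threshold with median-of-ratios scaling (0.83 and 0.74). *Taf8* also did so without E16.5F control library 1 (0.96), and *Taf13* without E13.5F control library 2 (0.96) or 3 (0.89) or E16.5F control library 1 (0.91). *Foxo3*, which keeps primordial follicles dormant, rose (2.17, standard error 0.233, limma adjusted p = 4.8e-05), as did *Tle6* of the subcortical maternal complex (1.96, standard error 0.163, limma adjusted p = 9.6e-06). *Pou5f1*, the pluripotency factor also known as *Oct4*, fell (-3.70, standard error 0.313, limma adjusted p = 1.1e-05), and so did *Tcf3*, which codes for a dimer partner of helix-loop-helix factors (-1.29, standard error 0.192, limma adjusted p = 3.7e-04). The 3 *Dppa* genes called fell, with log2 differences of -4.81 for *Dppa2*, -3.74 for *Dppa5a* and -1.99 for *Dppa4*. *Dppa2* and *Nlrp14* entered this test through their E13.5F level alone. *Nlrp14* fell (-1.32, standard error 0.295, limma adjusted p = 0.0042) and lost its call without E13.5F control library 1 (-1.27), 2 (-1.42) or 3 (-1.27), without a filter and with the replicate block.

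Between control E13.5F and control E13.5M PGCs 14 of 43 were called, 8 higher and 6 lower in females. Of all genes tested there, 29.8% were called, 20.4% higher and 9.35% lower, and nothing is read from the count. *Patl2*, a translational repressor of oocytes, was higher in females (2.94, standard error 0.192, limma adjusted p = 2.3e-06), as was *Taf11* (1.36, standard error 0.125, limma adjusted p = 1.7e-05). *Taf12* was higher as well, at 42.2 ± 1.65 TPM against 14.3 ± 1.84 TPM (SD, n = 3). Also higher in females were *Stat3* (1.31), *Tle6* (1.44), *Ddx4* (1.28), *Taf9b* (1.19) and *Tcf12* (1.16), of which *Ddx4*, *Taf9b* and *Tcf12* fell below 1 with median-of-ratios scaling (0.95, 0.87 and 0.84). Lower in females were *Ooep* (-1.52), *Zp1* (-1.47), *Dppa4* (-1.38), *Dppa5a* (-1.33) and *Pou5f1* (-1.23). *Zp1* entered the test through its male level alone and *Patl2* through its female level alone. *Khdc3* was lower in females (-5.36, standard error 0.228, limma adjusted p = 2.2e-07), with 1.16 ± 0.671 TPM against 84.5 ± 2.62 TPM in males (SD, n = 3).

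Genes whose group means most resembled those of a member were looked up over the 10 PGC groups among 11814 genes, by Pearson's r of mean log2(TPM + 1), as a description, since the points share stage, sex and libraries. *Sohlh1* was most like *Tdrd9* (r = 0.994), a helicase gene of the piRNA pathway, which was at 87.5 TPM in control and 35.1 TPM in IUHG E16.5F PGCs. *Figla* was most like *Plekhg4* (r = 0.990), at 20.3 TPM in control and 16.9 TPM in IUHG E16.5F PGCs, and *Stk33* (r = 0.986), at 73.6 and 63.8 TPM in the same groups. *Taf7l* was most like *Sdr39u1* (r = 0.987), at 254 and 211 TPM there, and *Ccdc172* (r = 0.985), at 393 and 414 TPM. *Lhx8* was most like *Ly86* (r = 0.995), at 11.9 TPM in control and 7.03 TPM in IUHG E16.5F PGCs, and *Gm57367* (r = 0.989), at 16.9 and 7.25 TPM. *Nobox* was most like *Gm57435* (r = 0.986), at 13.8 and 4.2 TPM in these groups, and *Gm46603* (r = 0.981), at 10.0 and 3.28 TPM. The IUHG groups were among those ranked on.

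*Sohlh2* was most like *Ect2* (r = 0.995) and *Nfx1* (r = 0.995), and *Taf4b* like *Stxbp4* (r = 0.991) and *Ints6* (r = 0.987). *Dppa3* was most like *Tmem97* (r = 0.986), at 131 TPM in control and 80.5 TPM in IUHG E16.5F PGCs, and *Nmral1* (r = 0.985), at 6.34 and 0.625 TPM. *Ybx2* was most like *Fbxw4* (r = 0.990) and *Arid4b* (r = 0.985). *Zp3*, high in E16.5M PGCs, was most like *Cldn18* (r = 0.999) and *Jhy* (r = 0.997).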

How the data were processed

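RNA sequencing of 30 PGC and 6 gonad libraries was used, with 3 libraries in each of 12 groups taken from the labels. The deposited tables were made by the authors with StringTie. TPM values were scaled by the authors for transcript length and to a fixed total, FPKM values were scaled by the authors for transcript length and mapped fragments, and the deposited coverage is a signal, the mean read depth over transcript bases, unscaled. The labels name STAR and mm39 for all libraries, while the methods name HISAT2 for gonads. Of gonad genes matched by symbol, 48.0% shared a start or end with GRCm38, against 1.14% of PGC genes. Aligned bases were taken as the commonest ratio of coverage to FPKM. Read counts were not used here, so counting error is unknown and no count model was run.

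Values were analysed as log2(TPM + 1), which understates changes of low genes. In R 4.3.3, limma 3.58.1 (two-sided, lmFit and trended eBayes) tested genes that averaged at least 1 TPM in either group, on the groups compared only, with Benjamini-Hochberg adjustment over all of them. PGC calls required adjusted p below 0.01 together with a log2 difference larger than 1 in size, gonad calls below 0.05 and at least 1, and interaction calls below 0.01 alone. Each fit was repeated without the filter, with a pseudocount of 0.1, with median-of-ratios scaling, at an unadjusted p below 0.01, with a replicate block, with all PGC libraries fitted together, and without each library. The fits were tested on simulated data.

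The members and lists were chosen with earlier results of these data known. Named genes were the members, the called genes of other lists (at most the 3 with the largest difference per list), paralogs of members, and the 2 genes most like each member among those with a highest group mean of at least 10 TPM. One of these genes is not reported here. Promoters were those of RefSeq on GRCm38.p6. Tables were made with Python 3.11.15 and pandas 2.3.3, and figures with matplotlib 3.10.9.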

Additional observations from a re-analysis of the deposited data

Results flagged for a closer look

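The results below are those in which the effect of IUHG differed between ages or sexes by a test of the difference itself (limma interaction, adjusted p under 0.01). For members of the chosen 10 the differences are descriptions.

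In female PGCs the log2 difference at E16.5 minus that at E13.5 was 1.88 for *Figla*, 3.07 for *Taf7l*, -1.71 for *Lhx8* and -4.99 for *Dppa3*. Among the other oocyte programme genes it was -1.34 for *Ybx1* (standard error 0.230, limma adjusted p = 0.0036) and -1.39 for *Dppa4* (standard error 0.194, limma adjusted p = 7.6e-04). *Ybx1*, the broadly expressed paralog of *Ybx2*, was at 98.7 to 135 TPM in control and 194 to 211 TPM in IUHG E13.5F PGCs, and at 78.5 to 101 TPM and 56.0 to 69.7 TPM at E16.5F, so the groups were in opposite order at the 2 ages. *Dppa4* was likewise higher in IUHG at E13.5F (319 to 331 against 212 to 229 TPM) and lower at E16.5F (28.0 to 31.9 against 49.2 to 60.8 TPM). *Ybx1* lost its call without E13.5F control library 1 (-1.24) or 3 (-1.31), E16.5F control library 2 (-1.27) or 3 (-1.31) or E16.5F IUHG library 3 (-1.38).

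At E13.5 the female minus male difference was -3.80 for *Figla* and -2.64 for *Taf7l*. Among the other genes it was -1.05 for *Taf11*, a TFIID subunit (standard error 0.208, limma adjusted p = 0.0082), and 1.17 for *Dppa4* (standard error 0.144, limma adjusted p = 4.0e-04), which is 0.96 and not called with median-of-ratios scaling. *Taf11* was at 108 to 144 TPM in control and 62.6 to 77.1 TPM in IUHG E13.5F PGCs, and at 45.5 to 53.3 and 52.1 to 65.1 TPM in E13.5M PGCs. It lost its call under 10 of 18 settings, which are no filter on low values and leaving out E13.5F control library 1 (-0.97) or 3 (-0.99), E13.5F IUHG library 2 (-0.95), E13.5M control library 1 (-0.98), 2 (-1.09) or 3 (-1.07) or E13.5M IUHG library 1 (-0.96), 2 (-1.12) or 3 (-1.06).

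Among members, *Figla* lost the stage by IUHG call under 10 of 18 settings (1.81 to 1.98), without a change in direction. These were no filter, median-of-ratios scaling and leaving out E13.5F control library 1 (1.93), 2 (1.81) or 3 (1.91), E16.5F control library 1 (1.92), 2 (1.89) or 3 (1.83) or E16.5F IUHG library 1 (1.84) or 3 (1.91). *Lhx8* lost it under 10 of 18 (-1.75 to -1.63), which were a pseudocount of 0.1 and leaving out E13.5F control library 1 (-1.65) or 2 (-1.63), E13.5F IUHG library 1 (-1.63), E16.5F control library 1 (-1.75), 2 (-1.63) or 3 (-1.74) or E16.5F IUHG library 1 (-1.71), 2 (-1.73) or 3 (-1.69).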

How the results depend on the processing

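Of 1170 member log2 differences recomputed under other settings, 1126 moved by less than the spread between libraries, 44 moved by more, and none of those called changed sign. Without a filter the members called went from 6 to 3 at E16.5F and from 2 to 1 at E13.5F, and the other programme genes called from 1 to 0 at E12.5, E13.5M and E16.5F and in gonads. At E16.5F that count was also 0 with a pseudocount of 0.1. With all PGC libraries in a shared fit, *Sohlh1* (-1.34) was called beside *Figla* and *Taf7l* at E13.5F, which makes 3 members, and other programme genes called were 0 at E12.5, 4 at E13.5F, 0 at E13.5M and 3 at E16.5F. At an unadjusted p under 0.01 they were 3 at E13.5F and 3 at E16.5F, where 1005 and 910 of all genes passed. Members and other genes past the interaction threshold went from 6 to 18 at an unadjusted p and 19 in the shared fit for stage, and from 4 to 13 and 7 for sex. Among all genes the same counts went from 397 to 2158 and 2552 for stage, and from 557 to 2354 and 1055 for sex. Leaving out each library gave 1 to 2 members at E13.5F, 3 to 6 at E16.5F, 3 to 15 genes (stage) and 3 to 14 (sex) for the interactions, and for other programme genes 0 to 1 at E12.5, 0 to 2 at E13.5F, 0 to 1 at E13.5M, 0 to 1 at E16.5F and 1 to 5 in gonads. The highest interaction counts, 15 and 14, were without E13.5F IUHG library 3, where 771 and 1642 of all genes passed. Nothing is read from these counts. The cause of these changes was not tested.

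Among all genes, calls at E12.5, E13.5F, E13.5M, E16.5F, E16.5M and in gonads were 34, 85, 567, 138, 42 and 111. Without a filter they were 2, 1, 357, 10, 9 and 5. In the shared fit of PGCs they were 53, 1237, 348, 1580 and 144. At E13.5F median-of-ratios scaling gave 144, and leaving out libraries 1 (without control library 2) to 428 (without IUHG library 3). At E16.5F a pseudocount of 0.1 gave 87.

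Libraries with the same replicate number had correlated deviations from -0.085 to 0.126, and in no comparison was every pair's correlation over 0.1, the limit set for taking numbers as pairs, so the numbers were not taken to pair them. A replicate block left 5 members called at E16.5F (6 without it) and 0 other programme genes, since *Kit* lost its call. Genes called among all genes were with the block 17 at E12.5, 216 at E13.5F, 62 at E16.5F, 20 at E16.5M and 56 in gonads.

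Median-of-ratios scaling moved the median log2 difference of all genes from 0.145 to -0.0112 at E13.5F, from 0.315 to 0.0666 between control ages, from 0.280 to -0.0291 between control sexes and from 0.161 to -0.0271 for the sex interaction. Calls between control ages then went from 3307 higher and 1760 lower to 2538 higher and 2410 lower, and between control sexes from 3213 higher and 1470 lower to 2128 higher and 2214 lower. Summing identifiers that share a symbol was not run, since no listed gene had several.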
